A study of Homo sapiens with 6 samples.

Results

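HA nChIP-Seq in U2OS cells placed the tagged protease MMP-2 at 732 short regions that lay at coding start sites inside genes. These regions were taken from the 7216 regions of the merged HA list by 3 conditions. A region had to be 2000 bp wide or less and to lie within 1 kb of the start of a protein coding transcript. It also had to lie over 1 kb from the 5′ end of every protein coding gene, on chromosomes 1 to 22 and X of GRCh37 with GENCODE version 44 as the annotation. The 732 regions were 10.9% of the 6685 regions within the width limit, and they fell in 717 genes. The regions were chosen by the HA signal of the merged list, so their enrichment is a description.

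U2OS is a human osteosarcoma cell line. The ProMMP2-3xHA cells are a U2OS line that stably carries pro-MMP-2 with a C-terminal HA tag, and the WT cells carry no tag. All cells were grown to 2 days past confluence. Their nuclei were digested with micrococcal nuclease and the released nucleosomes were immunoprecipitated without crosslinking. The HA antibody was used in 3 replicates of the ProMMP2-3xHA cells, and H3K4me3, the histone mark of active promoters, was profiled in 1 library of the ProMMP2-3xHA cells and 1 of the WT cells. HA in WT cells was not analysed here. A difference between the 2 cell lines therefore has no replicate check.

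MMP-2 is a zinc-dependent gelatinase best known for cleaving extracellular matrix, and the protease is also found in the nucleus, where the N-terminal tail of histone H3 is a substrate. A gene can be read from several promoters. An internal promoter lies downstream of the outermost start, often in an intron, and the transcript that starts there can lack the first exons and code for a shorter protein. The outermost start in an annotation need not be that of the representative transcript of a gene, so that its start can count as internal too.

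Most of the 732 regions lay at such a representative start, so they are not called alternative promoters here. In 578 of the 732 (79.0%, exact 95% interval 75.8 to 81.9%), the canonical transcript of a gene, the isoform that Ensembl takes as its representative, started within 1 kb. The other 154 regions had no canonical start within 1 kb. These are called here regions at a canonical start and regions at no canonical start, and all 732 internal regions. Intervals of shares cover counting error only. The transcript that set the 5′ end of the host gene was coding for 522 of the 732 (71.3%) and carried the basic tag of GENCODE, given to its better supported models, for 312 (42.6%). For regions at no canonical start the basic share was 60.4% (52.2 to 68.2%), against 37.9% (33.9 to 42.0%) at canonical starts.

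**Figure D1:**
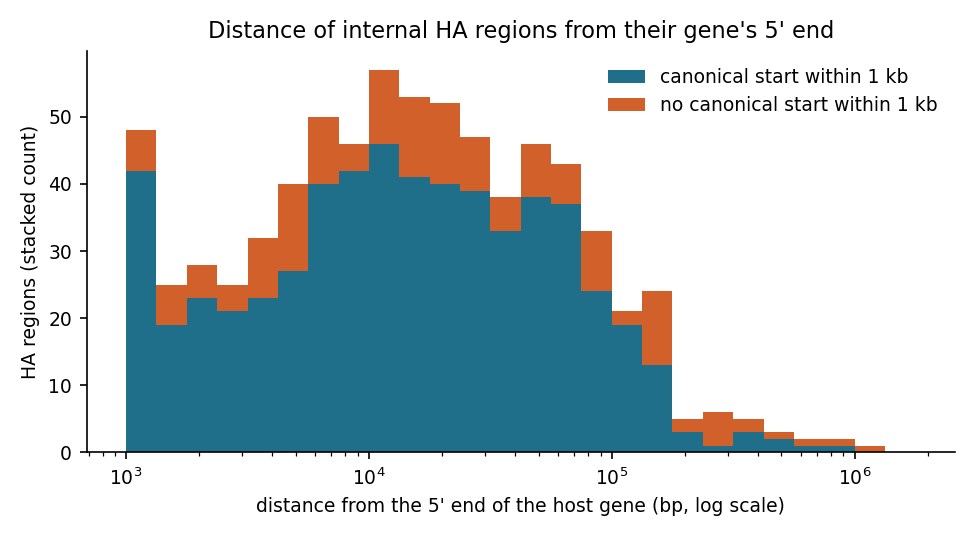
Distance in bp, on a log scale, from each of the 732 internal regions to the 5′ end of its host gene, as a stacked count of regions with (578) and without (154) a canonical start within 1 kb. Most lay between 5 and 100 kb from the gene's 5′ end, and the farthest lay 1115926 bp away.

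The start sites of 6 internal regions at no canonical start are printed first, because these regions had the highest mean HA enrichment among those with a peak of every replicate. Each run holds 200 bases, 100 before the start site and 100 from it on, read from GRCh37 5′ to 3′ on the strand of the transcript. Capitals mark matches to 7 promoter motifs on either strand. These were the TATA box, searched as TATAAA, the CCAAT box, searched by its own letters CCAAT, the GC box of SP1, searched as GGGCGG, and the ETS core, searched as CCGGAAG. The remaining motifs were the CRE, searched as TGACGTCA, the NRF1 core, searched as GCATGCGC, and the YY1 core, searched as ATGGCGG. Matches may overlap.
HIF3A, chr19:46801583-46801782, plus strand: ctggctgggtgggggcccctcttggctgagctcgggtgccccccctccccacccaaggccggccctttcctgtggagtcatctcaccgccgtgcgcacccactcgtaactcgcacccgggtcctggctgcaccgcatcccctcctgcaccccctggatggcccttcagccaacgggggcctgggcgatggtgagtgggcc
RNF220, chr1:45097304-45097503, plus strand: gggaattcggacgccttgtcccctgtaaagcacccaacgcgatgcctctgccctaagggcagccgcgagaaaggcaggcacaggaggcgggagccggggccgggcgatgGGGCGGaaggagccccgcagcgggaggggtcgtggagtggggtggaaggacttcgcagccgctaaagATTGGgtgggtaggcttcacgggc
AFF1, chr4:87928040-87928239, plus strand: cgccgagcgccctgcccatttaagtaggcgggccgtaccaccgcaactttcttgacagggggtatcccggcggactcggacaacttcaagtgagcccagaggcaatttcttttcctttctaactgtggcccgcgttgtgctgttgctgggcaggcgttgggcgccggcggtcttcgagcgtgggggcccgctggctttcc
HYAL2, chr3:50358549-50358748, minus strand: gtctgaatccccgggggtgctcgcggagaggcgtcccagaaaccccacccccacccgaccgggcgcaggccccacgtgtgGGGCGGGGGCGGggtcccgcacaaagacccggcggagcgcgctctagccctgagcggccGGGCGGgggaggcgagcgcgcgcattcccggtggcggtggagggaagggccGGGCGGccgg
BMI1, chr10:22614486-22614685, plus strand: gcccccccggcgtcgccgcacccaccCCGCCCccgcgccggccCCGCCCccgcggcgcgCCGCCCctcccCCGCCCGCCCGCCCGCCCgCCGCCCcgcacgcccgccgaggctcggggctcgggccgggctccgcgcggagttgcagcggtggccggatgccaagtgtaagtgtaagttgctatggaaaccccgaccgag
FBXO44, chr1:11718499-11718698, plus strand: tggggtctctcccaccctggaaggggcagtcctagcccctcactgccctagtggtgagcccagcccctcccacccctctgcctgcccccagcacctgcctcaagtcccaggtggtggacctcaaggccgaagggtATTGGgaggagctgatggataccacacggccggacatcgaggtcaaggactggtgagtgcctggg

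The 6 start windows differed in base composition. BMI1, which codes for a Polycomb subunit, had 82.0% GC, 34 CpG and 8 GC boxes, and HYAL2, a hyaluronidase, had 78.5% GC, 27 CpG and 4 GC boxes. RNF220, a ubiquitin ligase, held 1 GC box and 1 CCAAT box. No motif matched in AFF1, a subunit of the super elongation complex, or in HIF3A, a hypoxia-inducible factor subunit. FBXO44, an F-box protein of a ubiquitin ligase, had 1 CCAAT box and 4 CpG. A match is a description and not a bound site.

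The HA regions of HIF3A and FBXO44 lay farthest from the start sites printed above. Relative to the start site, with negative values upstream, the centre of the HIF3A region lay at 746 bp and that of the FBXO44 region at −659 bp. The other 4 centres lay at 387 bp for RNF220, 66 bp for AFF1, −134 bp for HYAL2 and 267 bp for BMI1, whose region also began downstream of its start site. Neither HIF3A nor FBXO44 had an H3K4me3 region of either cell line within 1 kb. The 200 bases around the summits of these 2 regions are therefore printed too, on the plus strand, and they hold none of the 7 motifs.
HIF3A, chr19:46802346-46802545, plus strand: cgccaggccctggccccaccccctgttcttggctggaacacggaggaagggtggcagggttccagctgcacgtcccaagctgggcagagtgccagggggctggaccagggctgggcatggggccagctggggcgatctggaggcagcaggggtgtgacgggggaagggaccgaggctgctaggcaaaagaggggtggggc
FBXO44, chr1:11717872-11718071, plus strand: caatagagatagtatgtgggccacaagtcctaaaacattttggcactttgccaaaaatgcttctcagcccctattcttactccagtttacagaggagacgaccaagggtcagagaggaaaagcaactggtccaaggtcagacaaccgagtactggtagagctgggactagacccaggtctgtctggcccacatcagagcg

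The HIF3A summits of the 3 replicates lay within 12 bp of each other and those of FBXO44 within 45 bp. The HIF3A region had the highest mean enrichment of all internal regions. MACS2 gave it a fold enrichment of 66.7 in replicate 1 and 79.7 in replicate 2 but 8.75 in replicate 3. The mean was thus 51.7 ± 37.8 (SD, n = 3). Its summit held 947, 892 and 102 fragments, as recovered from the fold enrichment and the p-value of MACS2. Without replicate 3 the mean fold enrichment was 73.2, and without replicate 2 it was 37.7. Replicate 3 stood far below the other replicates at this region.

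Of the 12 internal regions in every replicate with the highest mean fold enrichment, 11 had a canonical start, and HIF3A was the exception. Over all 384 internal regions with a peak of every replicate the share at canonical starts was 83.1%, so 11 of 12 lay near the background. HSP90AA1, the stress-inducible HSP90 chaperone, had a fold enrichment of 23.4, 39.7 and 14.2 in replicates 1, 2 and 3. PYGO2, a coactivator of Wnt signalling, had 15.2, 25.3 and 16.9. EEF1A1, the translation elongation factor, had 15.1, 19.3 and 14.7, and the splicing factor HNRNPH1 had 13.2, 19.3 and 15.0. CDKN1A, the cell cycle inhibitor p21, had 7.54, 15.1 and 13.5. In all 5, replicate 2 was highest, and HSP90AA1 had the widest spread (SD 12.9). Replicate 2 was also highest over all 6685 regions within the width limit, with medians of 5.00, 5.99 and 5.12 in replicates 1, 2 and 3. The other 6, TUBA1C, RAB11A, SRSF5, RSRP1, SFXN5 and FIS1, had means of 13.3, 12.8, 12.02, 11.8, 11.7 and 11.4. An α-tubulin, the recycling endosome GTPase RAB11A and the mitochondrial fission protein FIS1 were thus among them. All 11 lay near H3K4me3 of both cell lines, as did 98.8% of all regions at canonical starts.

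The gap to the annotated gene start varied widely among these regions. The PYGO2 region lay 1263 bp from the 5′ end of its gene and that of CDKN1A 2053 bp. The HSP90AA1 region lay 51876 bp away, and those of TUBA1C and RAB11A 75835 and 143024 bp away.

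Among the regions at no canonical start, RNF220 came after HIF3A, with a fold enrichment of 7.96, 13.97 and 11.5. It lay at chr1:45097240-45098342, in intron 5 of the canonical transcript and 226374 bp from the 5′ end of the gene. AFF1 had 8.10, 12.01 and 8.25 in intron 2, HYAL2 had 8.19, 11.5 and 7.88 in intron 1, and BMI1 had 8.13, 13.0 and 6.09 in intron 1. FBXO44 had 9.78, 11.6 and 5.56 in intron 2. FLRT2, a membrane protein of cell adhesion and axon guidance, had 6.69, 7.93 and 11.6, and RUSC1 had 8.47, 10.3 and 7.11. Of these 8, FLRT2 alone had its highest value in replicate 3.

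**Figure D2:**
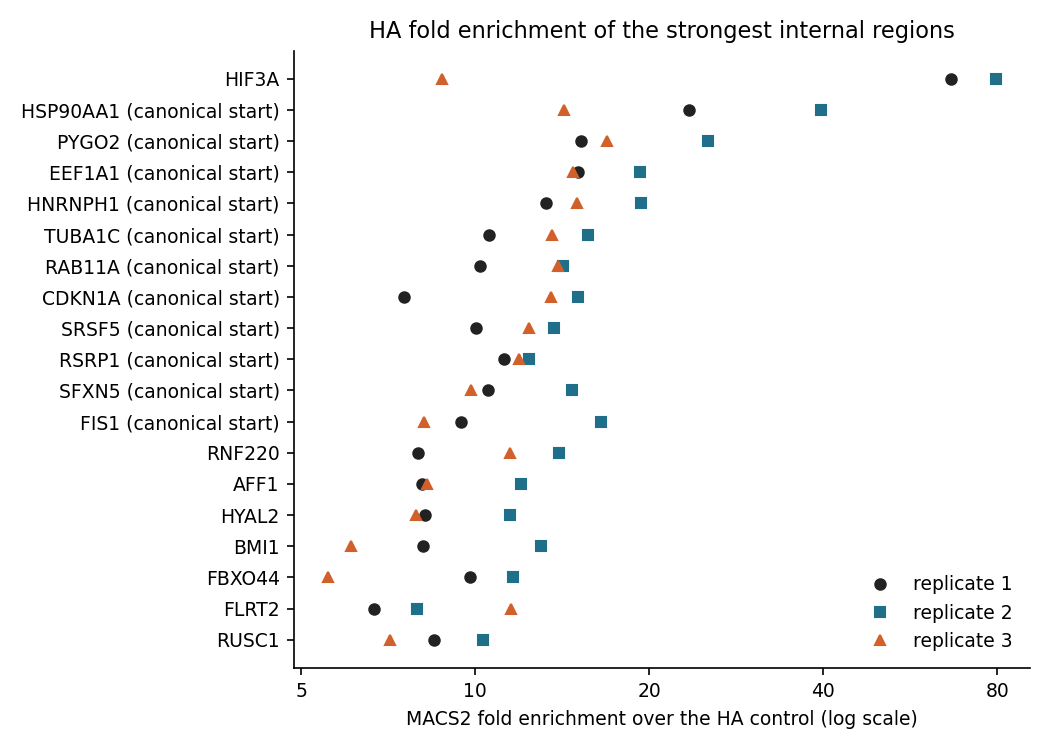
MACS2 fold enrichment over the HA control in the 3 replicates, on a log scale, for the 12 internal regions with the highest mean and the 8 at no canonical start with the highest mean (19 genes, HIF3A in both). HIF3A ran from 8.75 in replicate 3 to 79.7 in replicate 2, while the other regions lay between 5.56 and 39.7.

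The 5 internal regions of every replicate farthest from the gene start were named next. RUNX1, a transcription factor of blood and bone development, had its region at chr21:36260641-36261039, 1115926 bp from the 5′ end of the annotated gene and in intron 3 of the canonical transcript. Its fold enrichment was 7.82, 8.46 and 6.33, with H3K4me3 regions of 7479 bp in ProMMP2-3xHA cells and 9153 bp in WT cells near it. IQCJ-SCHIP1, a read-through of adjacent genes, followed at 801053 bp with 3.99, 6.01 and 7.11. The canonical starts were closer, 160759 bp from the centre of the RUNX1 region and 490612 bp from that of IQCJ-SCHIP1. ZBTB20, a zinc finger repressor, had 5.94, 7.81 and 5.67 at 522307 bp from the gene's 5′ end. BANK1 and NAV2 lay at canonical starts 379364 and 361513 bp from the gene start. Their fold enrichments were 7.53, 7.53 and 4.43 for BANK1, a B cell adaptor, and 9.96, 9.36 and 8.67 for NAV2, a cytoskeletal regulator. All 5 lay near H3K4me3 of both cell lines, as did 95.1% of all internal regions.

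The internal regions were then set beside the 4347 regions of the same width limit at coding gene starts. Their median fold enrichment was 5.00, 5.99 and 5.22 in replicates 1, 2 and 3, against 5.00, 5.93 and 5.20 at gene starts. The log2 ratio of the medians was 0.0018, 0.013 and 0.0052, a mean of 0.0065 ± 0.0055 (SD, n = 3, exact sign permutation p = 0.25, two-sided). With 3 replicates 0.25 is the smallest p this test allows. In all, 15 comparisons of this kind were made, and after Benjamini-Hochberg adjustment the p against gene starts was 0.536. Both classes were chosen as called HA regions and only called peaks were read, so similar medians cannot show equal HA binding. Against regions at no coding start, the mean log2 ratio of the internal regions was 0.028 ± 0.107 (SD, n = 3), smaller than its spread. Regions at no canonical start had medians of 5.22, 6.10 and 5.04 and regions at canonical starts 5.00, 5.99 and 5.25, and their mean log2 ratio of 0.011 ± 0.062 (SD, n = 3, exact sign permutation p = 0.75, adjusted 0.804) was smaller than its spread. The median summit of the internal regions held 52, 55 and 47 fragments, against 51, 54 and 47 for gene starts.

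Detection across replicates gave 384 of the 732 internal regions (52.5%, 48.8 to 56.1%) with a peak of every replicate. Over all 6685 regions within the width limit this share was 50.1%, so the internal regions lay near the background. The share was 55.2% (51.0 to 59.3%) at canonical starts, 42.2% (34.3 to 50.4%) at no canonical start and 56.8% (55.3 to 58.3%) at gene starts. Only 9 of the 732 overlapped a peak of no replicate. The merged list was called on the pooled reads of these replicates, so the shares describe the lists. The regions at no canonical start were found by replicate 3 in 69.5% of cases against 84.6% of the regions at canonical starts, and by replicate 1 in 72.7% against 69.7%. The difference averaged −6.27 ± 9.07 percentage points (SD, n = 3, exact sign permutation p = 0.5, adjusted 0.625) and did not exceed the spread between replicates. The shortest peak listed for replicate 2 was 281 bp, longer than those listed for replicates 1 and 3, and 285 internal regions were shorter than that.

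Internal regions lay almost always near H3K4me3. In ProMMP2-3xHA cells 697 of the 732 (95.2%, 93.4 to 96.6%) had an H3K4me3 region within 1 kb, and in WT cells 706 (96.4%, 94.8 to 97.7%). Over all 6685 regions the shares were 84.2% and 86%. The canonical start split them. Regions at canonical starts had 98.8% and 99.5% near H3K4me3 of ProMMP2-3xHA and WT cells, and gene starts 98.9% and 99.2%. Regions at no canonical start had 81.8% (74.8 to 87.6%) and 85.1% (78.4 to 90.3%). The 1606 regions at no coding start had 39.7% and 45.8%. The interval at no canonical start overlapped neither that at canonical starts nor that at gene starts. The classes were set by annotation, and no test was made.

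**Figure D3:**
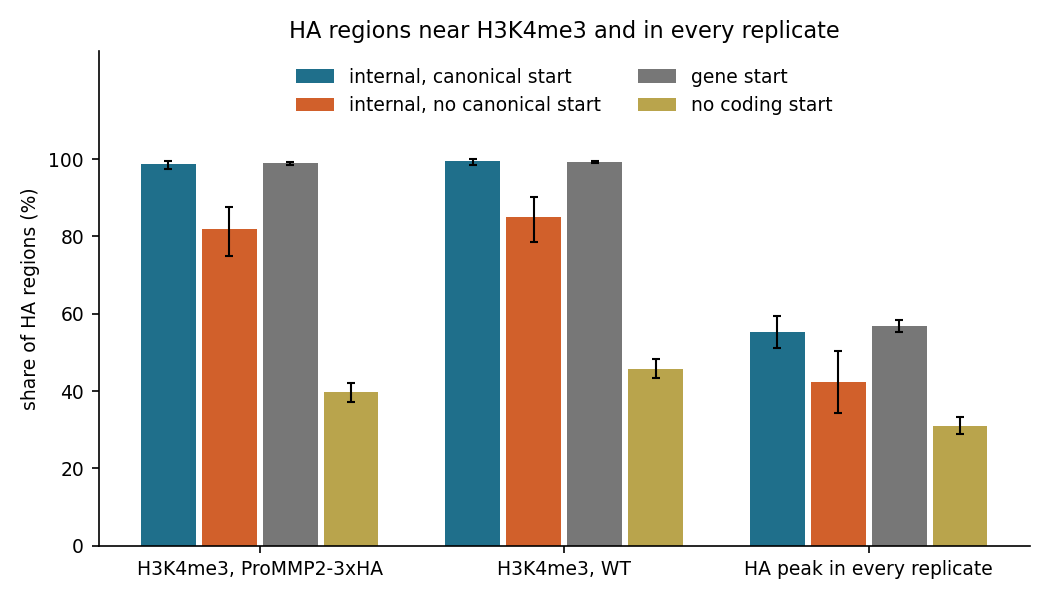
Share of HA regions, in %, near H3K4me3 of ProMMP2-3xHA cells and of WT cells and with an HA peak in every replicate, for 578 internal regions at canonical starts, 154 at no canonical start, 4347 at gene starts and 1606 at no coding start. Bars are shares and lines are exact 95% intervals. Internal regions at canonical starts stood level with gene starts in the H3K4me3 shares, and those at no canonical start lay between them and the regions at no coding start.

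H3K4me3 of neither cell line lay near 25 internal regions (3.42%, against 13.7% over all 6685 regions), 22 of them at no canonical start. Their median GC content in the 500 bp around the centre was 59.0%, against 67.8% over all internal regions, and their median width was 243 bp against 384.5 bp. A peak of every replicate was found at 5 of them. HIF3A and FBXO44 were described above. ZACN, a ligand-gated ion channel subunit, had a fold enrichment of 6.52, 9.46 and 5.26, MYH9, the non-muscle myosin heavy chain, had 4.64, 6.13 and 8.95, and NPLOC4, a cofactor of the segregase VCP, had 3.496, 4.22 and 5.53. Of the 5, ZACN alone lay within 1 kb of a canonical start. H3K4me3 regions near the internal regions had a median width of 1495 bp in ProMMP2-3xHA cells and 1891.5 bp in WT cells, and 1624 and 2033 bp at gene starts.

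The sequence of internal regions resembled that of gene starts more where a canonical start was near. Their median GC content was 68.2% at canonical starts, 66.7% at no canonical start and 67.6% at gene starts, against 56.4% at no coding start. The ratio of observed to expected CpG was 0.836, 0.697, 0.843 and 0.381 in the same order. In the 200 bases around the start site, the GC box GGGCGG occurred in 71.8% (67.9 to 75.4%) of the regions at canonical starts, in 52.6% (44.4 to 60.7%) at no canonical start and in 67.9% at gene starts. Over all 18253 internal start sites, after joining those within 500 bp on 1 strand, it occurred in 18.9%, and over the 2343 of them with H3K4me3 of ProMMP2-3xHA cells but no HA region in 43.4% (41.3 to 45.4%). The TATA box TATAAA occurred in 1.56% (0.714 to 2.94%), 3.90% (1.44 to 8.29%) and 2.05% of the 3 classes and in 9.53% of all internal start sites, or 5.04% of those with H3K4me3 and no HA. The ETS core CCGGAAG was in 13.1%, 6.49% and 19.0%, and in 2.87% of all internal start sites, or 4.99% of those with H3K4me3 and no HA. None of the 7 motifs was in the window of 11.1%, 33.8% and 12.8% of the 3 classes and in 51.8% of all internal start sites, or 35.8% (33.9 to 37.8%) of those with H3K4me3 and no HA. For each of these 4 measures the interval of the regions at no canonical start overlapped that of the marked sites without HA. Those marked sites included sites with and without a canonical start, and their motifs were not read separately. The overlap therefore cannot show that the sequences were alike.

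Most regions at no canonical start were intronic. The centre of 124 of the 154 (80.5%) lay in an intron of the canonical transcript, 53 of them in intron 1, and 20 (13.0%) lay upstream of it. The centre was a median of 13983 bp from the canonical start. The rule itself largely placed these regions inside genes, and the intronic share of internal start sites without HA was not read. At canonical starts, 242 of the 578 centres (41.9%) lay upstream of the canonical transcript, 25.4% in an intron and 122 (21.1%) in a 5′ UTR exon. An lncRNA gene on the other strand started within 1 kb of 24.9% (21.4 to 28.6%) of regions at canonical starts, 14.9% (9.71 to 21.6%) at no canonical start and 24.8% at gene starts.

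The summits of the internal regions lay downstream of the start site more often than upstream. Within 500 bp of the start site, 369 of 591 summits (62.4%), 441 of 734 (60.1%) and 482 of 736 (65.5%) lay downstream in replicates 1, 2 and 3. This exceeded an even split of 50% by 12.7 ± 2.71 percentage points (SD, n = 3, higher in 3 of 3 replicates, exact sign permutation p = 0.25, adjusted 0.536). The median downstream summit lay 132, 143 and 139 bp from the start site and the median upstream summit 261.5, 269 and 275.5 bp. Gene starts gave 59.3%, 58.9% and 61.5%, and the internal regions lay 2.76 ± 1.40 percentage points above them (SD, n = 3, higher in 3 of 3 replicates, exact sign permutation p = 0.25, adjusted 0.536). The corresponding excess was 13.9 ± 3.95 percentage points at no canonical start and 12.4 ± 2.56 at canonical starts (SD, n = 3). Summits near a coding start on the other strand were left out. The start site was the canonical start of the gene where that lay within 1 kb. Elsewhere it was the coding start nearest the centre for internal regions, but the gene's 5′ end for gene start regions. The comparison with gene starts was thus not on the same measure throughout. Internal regions also had to lie over 1 kb from every gene's 5′ end, a limit that gene start regions did not have. The effect of this limit on the downstream share was not tested.

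**Figure D4:**
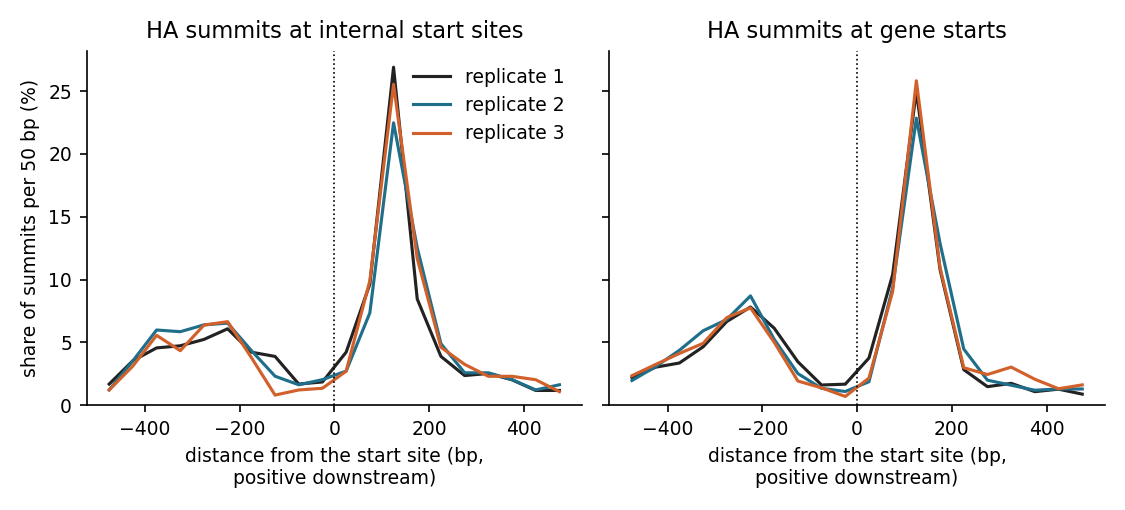
Share of HA summits per 50 bp, in %, against the distance in bp from the start site (positive downstream) in the 3 replicates, at internal regions (left) and at gene starts (right). In both, a sharp peak lay downstream and a broader, lower peak upstream, with few summits at the start site itself, and internal summits downstream were a median of 132 to 143 bp away.

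The 5′ end of the host gene was read next. Of the 732 internal regions, 335 (45.8%, 42.1 to 49.5%) had H3K4me3 of ProMMP2-3xHA cells within 1 kb of the gene's 5′ end, against 57.2% (56.5 to 57.9%) of all 20048 coding gene starts. H3K4me3 of neither cell line was there for 359 (49.0%), against 38.7% of all coding gene starts. For 54 regions the gene start and the internal region shared 1 H3K4me3 region, 48 of them 1 to 2 kb from the gene start. An HA region lay at the gene start of 144 (19.7%, 16.9 to 22.7%), against 28.4% (27.7 to 29.0%) of all coding gene starts. Neighbouring regions of the merged HA list were never closer than 4032 bp, so an internal region this close to an HA region of its gene start could not be listed beside it. Over 5 kb from the gene start it was 136 of 549 (24.8%, 21.2 to 28.6%). Of the 255 of these with H3K4me3 at the gene start, 129 (50.6%, 44.3 to 56.9%) also had HA there. Only 7 of the 549 had HA but no H3K4me3 there. Over all coding gene starts, HA lay at 48.8% of those with H3K4me3 and 0.979% of those without, so 50.6% lay near the background. At no canonical start the gene's 5′ end bore H3K4me3 in 56.5% (48.3 to 64.5%) and at canonical starts in 42.9% (38.8 to 47.1%).

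Where a gene had an HA region of 2000 bp or less at both places, neither was regularly the stronger among called peaks. Wider HA regions at the gene start were left out of this comparison. Pairs of this kind existed in 127 genes, and 63, 88 and 93 of them had a peak at both places in replicates 1, 2 and 3. The median log2 ratio of internal to gene start fold enrichment was −0.026, 0.057 and 0.11, a mean of 0.047 ± 0.068 (SD, n = 3, exact sign permutation p = 0.5, adjusted 0.625). Of the 40 genes with both peaks in every replicate, the internal peak was higher in all 3 replicates in 11, the gene start peak in 11, and 18 were mixed. RSRP1 was farthest to the internal side, with a log2 ratio of 1.09 ± 0.27, followed by AFF1 at 1.08 ± 0.33, WDR82 at 0.65 ± 0.093, MIB1 at 0.65 ± 0.042 and GSDMD at 0.62 ± 0.071 (SD, n = 3). WDR82 is a subunit of the SET1 H3K4 methyltransferase complexes and GSDMD the pore protein of pyroptosis. TAF12, a subunit of TFIID, was farthest to the gene start side at −1.97 ± 0.32, followed by NEMP1 at −1.04 ± 0.094, TIPIN at −0.90 ± 0.40, RAD52, a DNA repair protein, at −0.79 ± 0.68 and the GABA receptor GABBR1 at −0.71 ± 0.32. In TAF12 the internal fold enrichment was 3.29, 3.62 and 3.44 and that of the gene start 10.0, 15.8 and 15.6. The internal region of TAF12 lay at its canonical start, and the gene's 5′ end had H3K4me3 of WT cells only. For AFF1 the internal values were 8.10, 12.01 and 8.25 and those of the gene start 4.27, 4.35 and 4.54. Any HA region within 1 kb of the gene's 5′ end counted as the gene start region. These 10 genes were picked as the ends of the order, and all but AFF1 and GABBR1 had the internal region at a canonical start.

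H3K4me3 at an internal start site came with HA in part of the cases. Among the 18253 internal start sites, 3766 (20.6%) had H3K4me3 of ProMMP2-3xHA cells within 1 kb, and 1423 of these (37.8%, 36.2 to 39.4%) had an HA region within 1 kb. Without H3K4me3, 88 of 14487 (0.607%, 0.487 to 0.748%) did. HA regions of any width counted here, also those at gene starts. An HA or H3K4me3 region could count for several start sites, which the intervals leave out of account. Sites that included a canonical start had HA in 44.9% (42.4 to 47.4%) of the H3K4me3-marked cases, those without in 32.5% (30.6 to 34.6%), and coding gene starts in 48.8% (47.9 to 49.7%). Leaving out H3K4me3 regions shared with a coding gene start gave 42.8% (40.1 to 45.5%) and 30.8% (28.0 to 33.7%) for sites with and without a canonical start. With H3K4me3 regions shared with a coding gene start kept in, wider H3K4me3 regions had HA more often. Only 1046 of the 2166 marked sites with no canonical start, and 1372 of the 1600 with one, had H3K4me3 that was not shared. The widths were not read for these sites alone. At sites with no canonical start the share was 8.12% (4.96 to 12.4%) below 500 bp and 53.9% (47.9 to 59.8%) from 3000 bp on, and at sites with a canonical start it was 13.6% (8.51 to 20.2%) and 66.1% (57.1 to 74.4%).

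**Figure D5:**
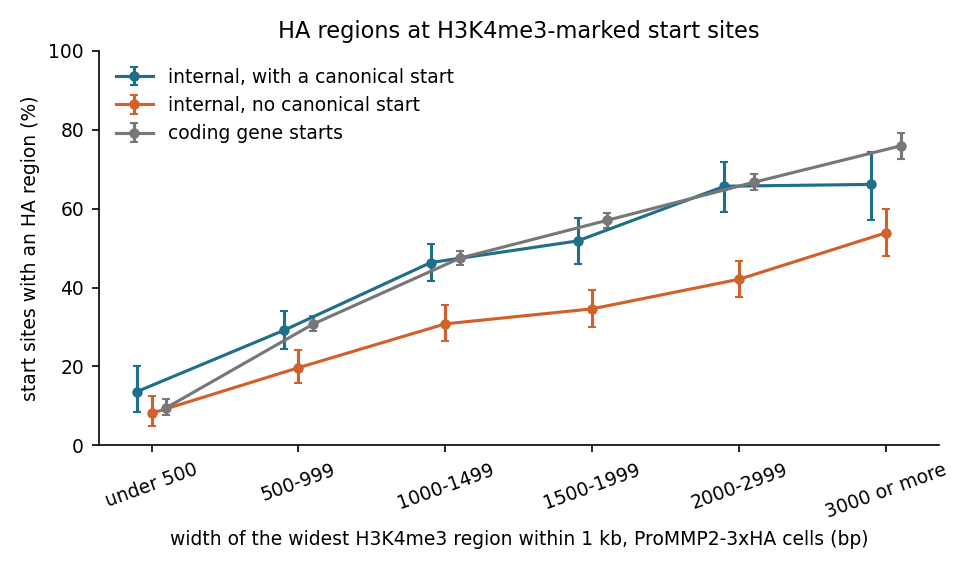
Share of start sites with an HA region within 1 kb, in %, against the width in bp of the widest H3K4me3 region of ProMMP2-3xHA cells within 1 kb, for internal sites with and without a canonical start and for coding gene starts. Points are shares and lines are exact 95% intervals, which cover counting error only. H3K4me3 regions shared with a coding gene start and HA regions of any width were included. Sites without a canonical start lay below the others from 500 bp on and reached 53.9% at 3000 bp or more.

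For 5 gene lists, the genes with an internal region were counted. Of the 9246 coding genes with an internal start site, 7.75% held an internal region. Genes with well-known internal promoters did so in 8 of 59 (13.6%, 6.04 to 24.98%), and cytoskeletal linkers in 7 of 28 (25%, 10.7 to 44.9%). Chromatin regulators did so in 9 of 55 (16.4%, 7.77 to 28.8%), zinc finger genes in 27 of 234 (11.5%, 7.74 to 16.3%) and phosphodiesterases in 1 of 18 (5.56%, 0.141 to 27.3%). The interval of the background was 7.22 to 8.32%. The interval of the cytoskeletal linkers began above it and those of the other lists did not, and no test was made. Regions at canonical starts counted in all of these shares, and they were most of the regions of the zinc finger genes. The member of the phosphodiesterase list was PDE4DIP, an anchoring protein that binds a phosphodiesterase.

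The genes of the known-promoter list with an internal region included ADAR, GNAS, NFIB, RUNX1, SEPTIN9, TCF4 and TPM1. TPM1, a tropomyosin gene with a promoter for short isoforms, had its region at chr15:63340152-63341522, in intron 2 of the canonical transcript, with 5.49, 4.54 and 6.64. Its gene start also bore an HA region. GNAS, which codes for the stimulatory G protein α-subunit, had 7.35, 4.97 and 6.0 in a region at a canonical start. ADAR, an RNA editing enzyme, had no peak in replicate 1 and 5.91 and 4.56 in replicates 2 and 3, at the canonical start 19842 bp from the gene start. TCF4 had a peak only in replicate 3, at 4.67. Of the 2 NFIB regions, that at a canonical start had a peak only in replicate 3, at 6.22. The other NFIB region had a peak only in replicate 1, at 3.34. Of the cytoskeletal linkers, FLNA, the actin crosslinker filamin A, had 7.33, 7.91 and 8.50, and ADD3, an adducin of the spectrin cytoskeleton, had 7.65, 9.34 and 6.78. PALLD, an actin-associated protein, held 2 regions, the first with 3.92, 4.59 and 7.61. Of the chromatin regulators, ARID1B, a SWI/SNF subunit, also held 2, and the distal region had 5.31, 8.73 and 9.07, 245125 bp from the gene start. KMT2E had 6.69, 10.2 and 6.62.

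Of the host genes, 15 held 2 internal regions and none held more, so the 5 genes with the most could not be told apart. They were IQSEC1, WWTR1, PALLD, P4HA2, IRF1, MGAT1, ARID1B, SOD2, NFIB, MIDEAS, FAM222B, SEPTIN9, ZNF846, NR1H2 and ITGB2. In SOD2, the mitochondrial superoxide dismutase, the region at the SOD2 canonical start had 6.08 and 4.21 in replicates 1 and 3 and none in replicate 2. The other, with 7.17, 11.2 and 8.50, lay near the canonical start of WTAP, a gene on the other strand that codes for a subunit of the RNA m6A methyltransferase complex. In IRF1, an interferon regulatory factor, the region at the canonical start had 4.18, 8.58 and 5.05 and the other 4.10 and 3.29 in replicates 1 and 2. WWTR1, the Hippo effector TAZ, had 4.63, 6.04 and 4.25 at its canonical start and 4.11 and 7.37 in replicates 1 and 2 at the other region, which had no H3K4me3.

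The limits of the rule were also examined. The widest internal region, 1869 bp at DDR1, had a fold enrichment of 4.23, 6.84 and 5.30, and the narrowest region that the width limit left out, 2042 bp, had 4.56, 4.59 and 5.39. At the 1 kb limit to a coding start, the region at ROBO3, 972 bp away, had 4.95, 6.13 and 4.75, and a region 1013 bp away had 7.16 and 7.18 in replicates 1 and 2. Nearest to a gene start was CTSZ, 1002 bp away with 3.57, 2.93 and 3.47, against PGF, 998 bp away and so a gene start region, with 4.64 and 9.48 in replicates 1 and 2. Of the regions over 2000 bp wide, 57 met the remaining conditions.

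Marker genes were read for H3K4me3 at their canonical start. Of 7 mesenchymal and bone genes, 4 (COL1A1, RUNX2, SPARC and VIM) bore it in both cell lines and COL1A2, ALPL and SP7 in neither. None of the 3 blood genes bore it, and of the 4 epithelial genes KRT18 bore it in both lines, with EPCAM and KRT8 in WT cells only.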

How the data were processed

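Native ChIP-Seq was performed by the authors in U2OS cells. According to the submitters' processing notes, reads were trimmed with Trim Galore 0.6.0, aligned to hg19 (GRCh37) with Bowtie2 2.3.5.1, filtered with SAMtools 1.9 and freed of duplicates with Picard. The authors called peaks with MACS2 3.0.0a6, each HA replicate (described as an independent biological experiment) in narrow mode against an HA control immunoprecipitation. The deposited lists of single replicates hold the position and summit of every peak, its score and its fold enrichment (a linear ratio). They also hold its p-value and q-value, both deposited as −log10. The score was not used. The deposited list of the pooled HA replicates and both H3K4me3 lists, in which the authors combined narrow and broad calls, give only intervals (start and end, no other value). The lists hold 8161, 13417 and 12728 summits for HA replicates 1, 2 and 3.

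Intervals and start sites were compared in Python 3.11.15 with numpy 2.4.6, scipy 1.17.1 and pysam 0.24.0, with GENCODE version 44 on GRCh37 (20098 coding genes), and the search was checked against bedtools 2.31.1 on simulated intervals. The fold enrichment of a region in a replicate was that of its highest overlapping peak. Read depth is not in the files, so the fragments at each summit were recovered as the whole number that gives both its fold enrichment and its p-value, which worked for 99.9%, 100.0% and 99.8% of summits. In this fit the HA libraries were 3.57, 2.81 and 3.00 times as deep as their controls. No depth could be recovered for H3K4me3. Quantities measured once in each replicate were compared with a two-sided exact sign permutation test, with Benjamini-Hochberg adjustment. Shares carry exact (Clopper-Pearson) 95% intervals.

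Named regions were the 12 of every replicate with the highest mean fold enrichment, the 8 such at no canonical start, the 5 farthest from the gene start, genes with 2 regions, genes of the known-promoter list, the 5 genes at either end of the within-gene ratio and the regions at each limit. The regions without H3K4me3 in every replicate were named after their values were seen. The internal regions and the gene lists were chosen with earlier results of these data known. A gene of the known-promoter list and 1 further gene list are not reported here.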

Additional observations from a re-analysis of the deposited data

How the results depend on the processing

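The number of internal regions ranged from 653 (width limit of 1000 bp) to 854 (500 bp windows). With basic transcripts only, the canonical share rose to 83.9%, and the shares near H3K4me3 to 97.2% in ProMMP2-3xHA and 97.8% in WT cells. Requiring an overlap of 1 bp gave 92.9% in ProMMP2-3xHA cells, an overlap of 50% of the region gave 88.0% and 94.8%, and the regions of every replicate alone gave 98.4% and 98.7%. The share with a peak of every replicate fell to 34.2% when 50% of the region had to be covered, and to 43.6% and 35.4% at a q of 0.01 and 0.001. The log2 ratio of fold enrichment to gene starts turned to −0.014 at a q of 0.001, and the cause was not tested. Leaving out each replicate gave 0.0035 to 0.0089 for this ratio, 0.015 to 0.083 for the ratio within genes and 11.3 to 13.96 percentage points for the downstream excess. Within 250 bp of the start site that excess was 26.5 percentage points. H3K4me3 at the gene start was at 40.3% within 500 bp. Counting unjoined start sites gave HA at 43.6% of those with H3K4me3. The GC content of the regions themselves was 68.8%. These alternatives were chosen after the data were seen: WT cells gave 50.5% for H3K4me3 at the gene start, and requiring H3K4me3 not shared with a gene start and an HA region of the 732 gave 31.8% for the start sites. No paired analysis was possible because the groups share only replicate number 1. The 3 replicates allow no p below 0.25.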
